A study of Mus musculus with 9 samples.

Results

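The genes that encode potassium, sodium and calcium channels and their auxiliary subunits were examined in mouse cardiosphere-derived cells. They were taken by symbol and biotype: protein-coding genes whose name starts with Kcn and a letter, with Scn and a digit, or with Cacna, Cacnb or Cacng. The rule gave 134 of the 54532 genes measured, or of 22046 protein-coding genes, namely 94 potassium, 14 sodium and 26 calcium channel genes. RNA sequencing had been done on 9 libraries in 3 groups of 3. pECDCs were primary cells, cultured per the study's methods from pieces of ventricular epicardium of 6-week-old C57BL/6 mice and expanded through cardiospheres. iECDCs were such cells transduced with a lentivirus carrying human telomerase (hTERT) under a CMV promoter, selected with puromycin and kept to passage 30. The treated group was labelled as iECDCs at passage 30 given SB431542 for 3 days, a small molecule that blocks the kinase of TGF-β type I receptors. The study's methods describe the treated cells as an epithelial clone of pECDCs instead, so both comparisons, with iECDCs and with pECDCs, are given. The labels do not say that libraries of a group came from separate cultures, so p-values measure only the spread between these libraries.

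Ion channels let ions cross the membrane through a pore that opens with voltage, ligands, stretch or pH. Potassium channels set the resting potential and repolarize the cell, sodium channels carry the fast upstroke of the action potential, and voltage-gated calcium channels couple depolarization to contraction, secretion and transcription. Auxiliary subunits traffic the pore to the membrane and tune its gating. Heart muscle is known for a rich set of these genes, whereas cultured stromal cells of the heart do not fire action potentials and are known mainly for potassium currents.

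Total counts ranged from 19462912 to 23951392 in pECDC, from 16568306 to 20204216 in iECDC and from 17063137 to 20849975 in SB431542 libraries. A pair of libraries stood apart from their groups. Replicate pairs of pECDCs gave a chi-square per degree of freedom of at most 4.23, whereas pairs with iECDC replicate 3 gave at least 24.9 and pairs with SB431542 replicate 2 at least 70.3. In 34 of the 36 detected channel genes SB431542 replicate 2 was the lowest or the highest treated library, and in 23 it lay nearer to the iECDC mean than to the mean of the other treated libraries. The summed level of a list of TGF-β target genes lay between 942 and 1021 FPKM in the treated libraries and was at least 2932 FPKM in the others. FPKM is the count per length of gene and depth of library. Summed markers of heart muscle cells lay between 0.328 and 2.31 FPKM, with Myh6, Actn2, Nppa, Pln and Myl2 at 3 counts or fewer in every library. Rbfox3 of neurons, Sox10 of Schwann cells and Pecam1 of endothelium were at that floor too. Summed markers of cardiosphere-derived mesenchymal cells lay between 1387 and 2139 FPKM. The part of any mixed cell types in the values below was not tested.

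Most channel genes had few or no reads in these cells. Only 36 of the 134 (26.9%) had at least 10 counts in every library of at least 1 group and are called detected here, against 55.2% of all protein-coding genes. Another 70 (52.2%) had at most 3 counts in each of the 9 libraries, against 36.7% of protein-coding genes, and 28 lay between. A floor of 3 counts covers counting error only. Calcium channel genes were detected in 10 of 26 cases, sodium channel genes in 5 of 14 and potassium channel genes in 21 of 94. Of the pore subunits of voltage-gated potassium channels 4 of 30 were detected and 18 were at the floor. Among them were Kcna1, Kcna2, Kcnc1, Kcnd2 and Kcnq1, named as familiar members of heart and nerve after their values were seen. Inward rectifiers were detected in 4 of 15 cases and two-pore domain channels, which carry background leak currents, in 4 of 14. Auxiliary subunits of calcium channels were split, with 7 of 16 detected and the other 9 at the floor. Cacna1s, the pore of skeletal muscle, and the inward rectifier Kcnj11, a subunit of ATP-sensitive channels, were also at the floor.

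**Figure D1:**
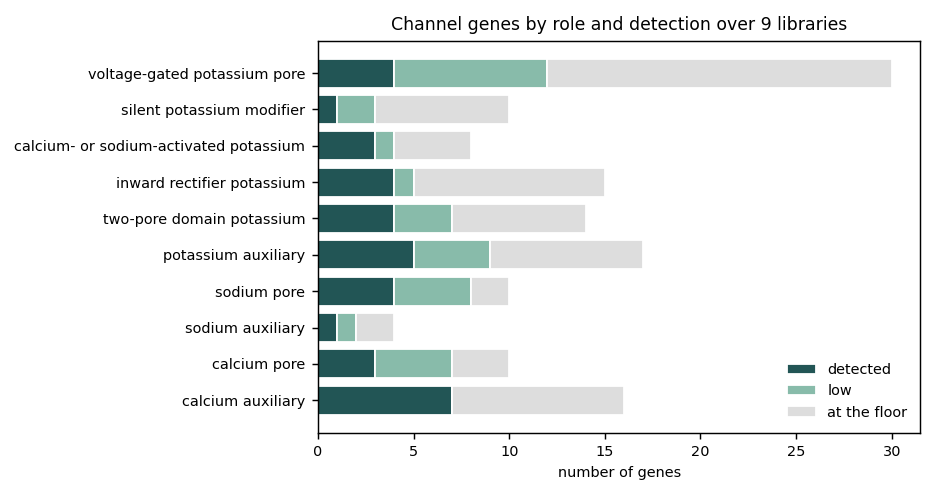
Number of channel genes in each role class, split into detected (at least 10 counts in every library of a group), low, and at the floor (at most 3 counts in all 9 libraries). The floor holds 18 of the 30 voltage-gated potassium pore genes, and in calcium auxiliary subunits 7 of 16 are detected and none is low.

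By group, 33 channel genes were detected in pECDCs, 27 in iECDCs and 32 in treated cells, with 26 detected in all 3 groups. The rule takes raw counts without correction for depth. Total counts reached 23951392 in pECDC, 20204216 in iECDC and 20849975 in SB431542 libraries. The share of all genes detected in each group was not computed. In pECDCs alone 3 were detected, Kcnf1 and Kcnn4 among them, and in treated cells alone 3, Scn3a and Cacna1g among them, by this count rule and not by a test. A mean of at least 1 FPKM in a group was reached by 21 genes, at least 5 FPKM by 9 and at least 10 FPKM by 4.

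The promoters of 3 genes whose levels are described below are shown as examples of an abundant gene and of low genes with large ratios: Cacna2d1, called higher in treated cells than in iECDCs, Kcnn4, with no read in iECDCs, and Scn7a, with the largest ratio. Each window runs 5′ to 3′ on the gene's strand, from 250 bases before to 50 after the start in RefSeq, on GRCm38.p6. Capitals mark CAGAC, the short element that Smad proteins of the TGF-β pathway bind, and GGGCGG, the GC box, on either strand, so that a match on the other strand reads as its complement in reverse. Cacna2d1 lay at chr5:15934441-15934740 on the plus strand, Kcnn4 at chr7:24370013-24370312 on the plus strand and Scn7a at chr2:66784861-66785160 on the minus strand, where the RefSeq start lies 4 bases from the deposited gene start.
Cacna2d1: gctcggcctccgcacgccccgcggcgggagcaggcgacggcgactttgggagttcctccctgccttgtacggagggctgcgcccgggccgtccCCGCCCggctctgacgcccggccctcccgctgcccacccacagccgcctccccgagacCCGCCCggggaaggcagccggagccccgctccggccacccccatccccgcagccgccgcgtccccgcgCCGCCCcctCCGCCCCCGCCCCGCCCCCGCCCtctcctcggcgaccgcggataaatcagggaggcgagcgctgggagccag
Kcnn4: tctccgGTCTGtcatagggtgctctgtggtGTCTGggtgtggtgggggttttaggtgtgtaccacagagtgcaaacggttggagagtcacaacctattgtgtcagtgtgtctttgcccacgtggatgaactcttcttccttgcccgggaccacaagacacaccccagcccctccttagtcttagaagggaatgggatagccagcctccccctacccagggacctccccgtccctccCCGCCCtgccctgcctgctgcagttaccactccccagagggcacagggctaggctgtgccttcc
Scn7a: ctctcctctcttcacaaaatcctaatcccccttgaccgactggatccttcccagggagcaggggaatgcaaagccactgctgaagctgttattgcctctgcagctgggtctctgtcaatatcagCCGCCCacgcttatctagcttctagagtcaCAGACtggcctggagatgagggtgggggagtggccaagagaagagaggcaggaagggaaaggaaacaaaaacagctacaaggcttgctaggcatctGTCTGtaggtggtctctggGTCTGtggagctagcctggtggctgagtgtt
The Cacna2d1 window held 7 GGGCGG matches, some of which overlap, and 0 CAGAC matches. Kcnn4 held 2 CAGAC and 1 GGGCGG, and Scn7a held 3 CAGAC and 1 GGGCGG. Over all genes, CAGAC was present in 49.7% and GGGCGG in 35.9% of 27025 promoter windows of this length, counting 1 window per gene. A promoter entry was found for 99 channel genes, 26 of them detected, and 15 of these 26 held CAGAC and 15 held GGGCGG. Of 49 channel genes at the floor 26 held CAGAC and 24 held GGGCGG. These matches are letters in a window and not sites of binding.

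Auxiliary subunits carried most of the channel RNA. The summed level of all 134 genes was 140 FPKM in pECDCs, 141 FPKM in iECDCs and 171 FPKM in treated cells, and the 5 highest genes made up 73.0%, 76.6% and 76.0% of it. Cacnb3, the β3 subunit that brings calcium channel pores to the membrane, was the highest in each group, with 31.4 ± 0.481, 35.3 ± 1.46 and 44.5 ± 1.24 FPKM (SD, n = 3). Cacng7 and Cacng8 are named as calcium channel γ subunits and best known as partners of AMPA receptors. Cacng7 followed with 22.5 ± 0.450, 28.6 ± 1.68 and 27.9 ± 2.95 FPKM, and Cacng8 had 4.87 ± 0.330, 5.52 ± 0.943 and 4.18 ± 1.14 FPKM. Kcne4, a small subunit that dampens several voltage-gated potassium channels, had 19.4 ± 1.09, 16.1 ± 3.23 and 23.5 ± 4.11 FPKM. Cacna2d1, the α2δ1 subunit of calcium channels, had 5.06 ± 0.0150, 4.47 ± 0.182 and 7.50 ± 1.45 FPKM.

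The pore subunits were lower. Kcnj15, an inward rectifier, was the highest of them, with 9.59 ± 0.248 FPKM in pECDCs, 9.15 ± 1.84 in iECDCs and 5.58 ± 2.21 in treated cells, and Kcnj4, another inward rectifier, had 1.42 ± 0.349, 1.27 ± 0.536 and 1.92 ± 0.515 FPKM. Kcnh2, the pore of the rapid delayed rectifier of heart muscle, had 3.89 ± 0.317, 3.37 ± 0.428 and 5.53 ± 1.67 FPKM. Kcnd1, of the family that carries transient outward current, had 1.90 ± 0.130, 1.40 ± 0.294 and 2.50 ± 0.584 FPKM. The calcium channel pores together summed to 2.16 ± 0.0858, 1.17 ± 0.0167 and 3.60 ± 0.847 FPKM and the sodium channel pores to 0.415 ± 0.0469, 0.456 ± 0.0239 and 2.10 ± 1.29 FPKM. The auxiliary subunits of calcium channels summed to 65.5 ± 1.24, 75.3 ± 1.77 and 85.9 ± 3.41 FPKM and so exceeded their pores in each group. Two-pore domain channels summed to 5.34 ± 0.384, 6.54 ± 0.0492 and 3.54 ± 0.711 FPKM. The calcium- or sodium-activated potassium channels were led by Kcnn1, of the small-conductance type, and Kcnt2, which opens with sodium. Kcnn1 had 0.401 ± 0.0368, 0.336 ± 0.0868 and 0.542 ± 0.303 FPKM, and Kcnt2 had 0.374 ± 0.0242, 0.267 ± 0.0452 and 0.638 ± 0.327 FPKM.

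**Figure D2:**
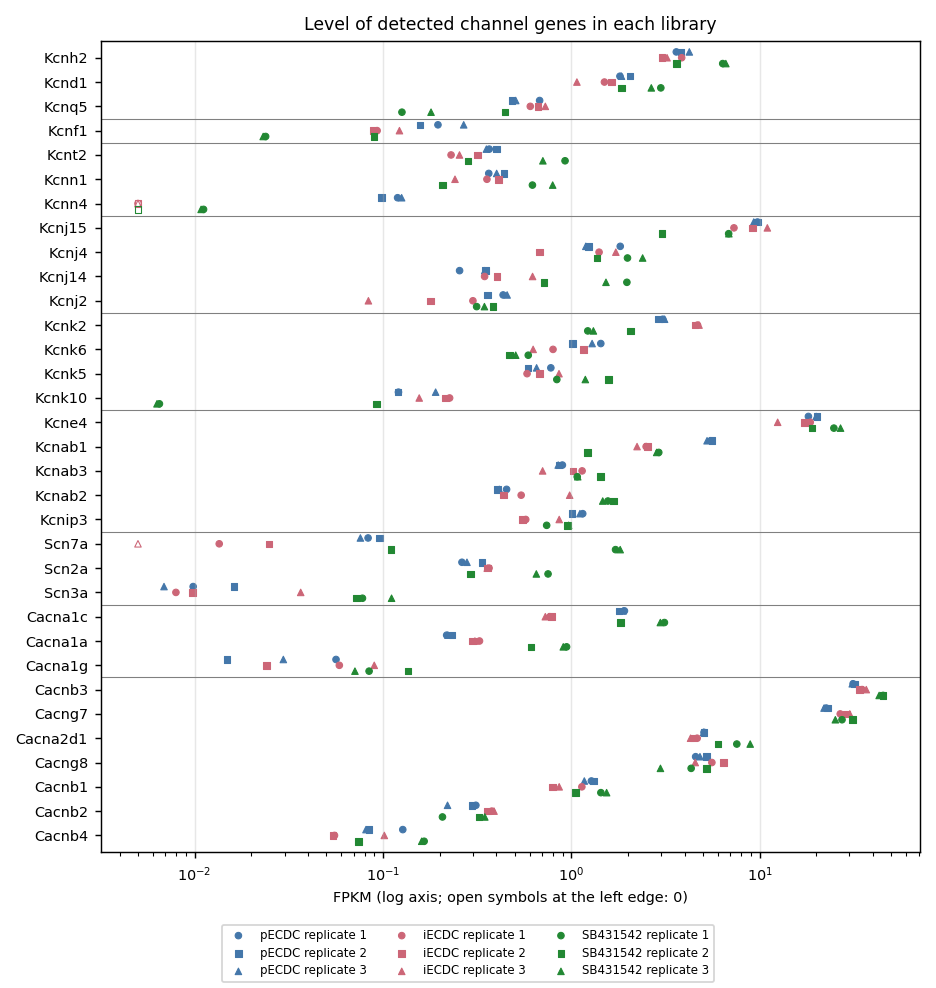
FPKM of most of the 36 detected channel genes in each of the 9 libraries, on a log axis, grouped by role with lines between the classes, where open symbols at the left edge are values of 0. Cacnb3, Cacng7 and Kcne4 lie above the rest, and SB431542 replicate 2 (green square) sits apart from the other treated libraries in many rows, such as Scn7a and Kcnk10.

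The first comparison asked which channel genes differed between immortalized and primary cells. Passage, transduction and selection changed together with hTERT and cannot be told apart, nor can fewer cells of a type and less RNA per cell in these bulk samples. Of 35 channel genes tested with edgeR's quasi-likelihood test, 2 were higher in iECDCs (Cacng7 and Kcnk2) and 6 were lower (among them Cacna1c, Kcnab1, Kcnn4, Scn7a and Kcnip3) at an adjusted p under 0.05. That was 22.9% of the channel genes tested, against 16.4% of all 13752 genes, with 7.21% higher and 9.21% lower. The median log2 fold change of the channel genes was -0.18, against -0.00 over all genes. The FPKM of the groups did not overlap in 18 channel genes (51.4%), against 39.9% of all genes. Of the 35, 6 had at least 10 counts in every library of only 1 of the groups compared. Of these 3, Kcnn4 and Scn7a among them, were among the 8 called. Such genes could pass the filter on low counts through that group alone, which favours a call in its direction. Without iECDC replicate 3, 4 were higher and 10 lower, and without pECDC replicate 1, 2 or 3 the test called 1, 2 or 1 higher and 3 lower each time.

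Cacna1c, the pore of the L-type calcium channel of heart and smooth muscle (ENSMUSG00000051331, chr6:118587240-119196418, minus strand, GRCm38), changed most clearly. It was at 1.91, 1.79 and 1.88 FPKM in pECDCs and at 0.769, 0.784 and 0.728 FPKM in iECDCs. All pECDC libraries were above all iECDC libraries, with a log2 fold change of -1.30 ± 0.0748 (SE) and an adjusted p of 1.14e-05 (edgeR). Kcnab1, a cytosolic β subunit of voltage-gated potassium channels with an oxidoreductase fold (ENSMUSG00000027827, chr3:65109384-65378223, plus strand), was at 5.49, 5.58 and 5.26 FPKM in pECDCs and at 2.50, 2.53 and 2.23 FPKM in iECDCs. The groups did not overlap, and the log2 fold change was -1.18 ± 0.0766 with an adjusted p of 2.32e-05 (edgeR). Both genes were called under each of 14 alternatives, with adjusted p values of at most 0.00194 and 0.0240. Genes on the opposite strand overlap both, Dcp1b in the case of Cacna1c, and could share reads because the strand used in counting is not given in the sources used here.

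Kcnn4, the calcium-activated potassium channel of intermediate conductance known from lymphocytes and proliferating stromal cells, had 15, 10 and 15 counts in pECDCs and 0, 0 and 0 in iECDCs. Against a floor of 3 counts per library it was at least 3.53-fold lower in iECDCs, with an adjusted p of 0.00355 (edgeR). Scn7a, a sodium channel relative that senses extracellular sodium rather than voltage, had 15, 14 and 13 counts in pECDCs and 2, 3 and 0 in iECDCs. Its depth-corrected ratio was 6.77 with an exact 95% counting interval from 2.68 to 21.9, and its adjusted p was 0.0154 (edgeR). Both genes had few counts, with every pECDC library above every iECDC library.

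Kcnip3, a calcium-binding partner of transient outward potassium channels that also binds DNA, was at 1.15, 1.01 and 1.11 FPKM in pECDCs and at 0.573, 0.549 and 0.863 FPKM in iECDCs. iECDC replicate 3 was the highest of its group but still below every pECDC library, and the log2 fold change was -0.75 ± 0.201 with an adjusted p of 0.0350 (edgeR). Kcnk2, a two-pore leak channel that opens with stretch and lipids (ENSMUSG00000037624, chr1:189207930-189402273, minus strand), was at 3.06, 2.91 and 3.13 FPKM in pECDCs and at 4.68, 4.54 and 4.77 FPKM in iECDCs. The groups stood well apart, with a log2 fold change of 0.61 ± 0.0799 and an adjusted p of 0.00130 (edgeR). Cacng7 was higher in iECDCs by 0.33 ± 0.0656 on the log2 scale, with an adjusted p of 0.00939 (edgeR).

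Several of these calls were lost when a library was left out or the fit was changed. Without a pECDC library the calls over all genes also fell, from 2258 to between 1036 and 1065. The adjusted p of Cacng7 was 0.0514 without pECDC replicate 1 and 0.0588 without replicate 3, at log2 fold changes of 0.34 and 0.32, and 0.0671 with all 9 libraries, within a range from 0.000636 to 0.0671 over its alternatives. That of Scn7a was 0.0579, 0.0625 and 0.0506 without pECDC replicate 1, 2 and 3, at -2.63, -2.54 and -2.70, and 0.360 with all 9 libraries, in a range from 0.00126. Kcnip3 lost its call when any library other than iECDC replicate 3 was left out, with adjusted p values from 0.0883 to 0.138 and log2 fold changes from -0.80 to -0.64. Without iECDC replicate 3 the log2 fold change of Kcnip3 was -0.97. Kcnk2 lost its call under a minimum log2 fold change of 1 and with all 9 libraries in the fit, at 0.0728, against 9.82e-07 to 0.0728 over its alternatives.

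**Figure D3:**
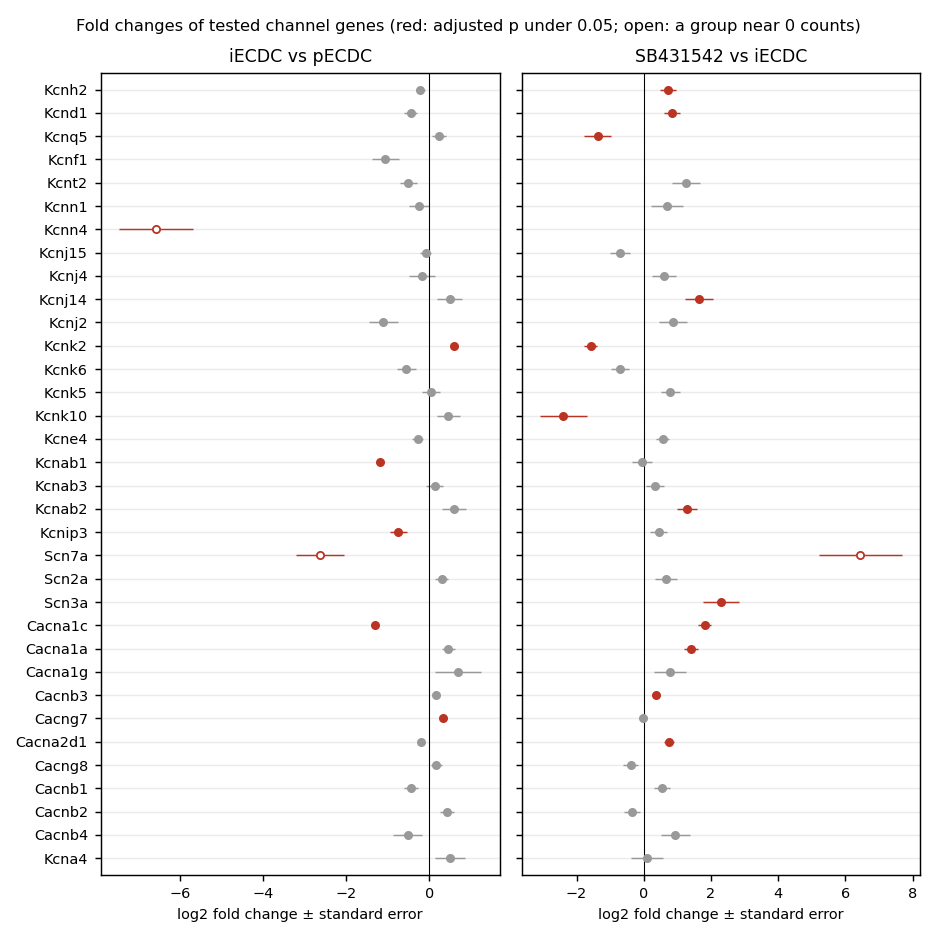
Log2 fold change with its standard error (edgeR) of most tested channel genes, for iECDCs against pECDCs on the left and SB431542-treated cells against iECDCs on the right, with calls at an adjusted p under 0.05 in red. Open circles mark genes with almost no counts in a group, Kcnn4 and Scn7a, whose fitted value depends on the prior count and is no bound, and the calls shown include Cacna1c at -1.30 on the left and 1.81 on the right.

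The second comparison, of SB431542-treated cells with iECDCs, followed the labels. No group is described as given vehicle. If the treated cells were a clone of pECDCs, as in the study's methods, hTERT, passage and cloning would differ together with SB431542. These could then not be told apart. Of 34 channel genes tested, 11 were higher and 3 lower in treated cells, 41.2% of those tested, against 30.0% of all 13559 genes, with 16.0% higher and 14.0% lower. The median log2 fold change was 0.63, against 0.00 over all genes. Groups did not overlap in 18 channel genes (52.9%), against 46.5% of all genes. Of the 34, 7 had at least 10 counts in every library of only 1 of the groups compared. Of these 4 were called, Scn3a, Scn7a and Kcnk10 included. Such genes could pass the filter through that group alone, which favours a call in its direction. Without SB431542 replicate 2 the counts became 19 higher and 4 lower, and without iECDC replicate 3 they became 9 and 2. With both left out together, an alternative added after seeing the data, 22 were higher and 6 lower. Summed smooth muscle markers were at 139, 331 and 139 FPKM in treated libraries and from 817 to 1922 FPKM in iECDC libraries. The highest sum was in iECDC replicate 3. Nearly all of this sum was Acta2, which is also on the list of TGF-β target genes. Acta2 was at 137, 322 and 137 FPKM in treated and at 812, 848 and 1898 FPKM in iECDC libraries.

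In this comparison 4 of 10 calcium channel genes tested were higher and 0 lower, against 16.0% higher and 14.0% lower over all genes. This difference was not tested. Cacna1c was at 3.12, 1.82 and 2.97 FPKM in treated cells against 0.769, 0.784 and 0.728 FPKM in iECDCs. Every treated library was above every iECDC library, with replicate 2 the lowest of them, and the log2 fold change was 1.81 ± 0.204 with an adjusted p of 0.00120 (edgeR). Cacna1a, the pore of the P/Q-type channel of nerve endings (ENSMUSG00000034656, chr8:84388440-84640246, plus strand), was at 0.944, 0.612 and 0.906 FPKM against 0.325, 0.298 and 0.308 FPKM. Its log2 fold change was 1.41 ± 0.217, with an adjusted p of 0.00359 (edgeR). Cacna2d1 was at 7.56, 6.01 and 8.91 FPKM against 4.66, 4.45 and 4.30 FPKM, a log2 fold change of 0.76 ± 0.149 with an adjusted p of 0.00893 (edgeR). Over 15 alternatives their adjusted p values were at most 0.0119, 0.0296 and 0.0431. Requiring also a log2 fold change of at least 1 ended the Cacna2d1 call. Without SB431542 replicate 2 their log2 fold changes were 2.01, 1.58 and 0.89.

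Cacnb3, the most abundant of all, was at 45.3, 45.3 and 43.1 FPKM in treated cells against 35.0, 34.0 and 36.8 FPKM in iECDCs. The groups did not overlap, but the change was small, 0.35 ± 0.0964 on the log2 scale with an adjusted p of 0.0290 (edgeR). Leaving out SB431542 replicate 1 or 3 or iECDC replicate 1 or 2 ended the call, with adjusted p values of 0.112, 0.0911, 0.111 and 0.137. Without a filter on low counts it was 0.0862, and a minimum log2 fold change of 1 also ended the call. Over its alternatives the adjusted p values ranged from 2.35e-05 to 0.137.

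Of 4 sodium channel pores tested 3 were called higher, from very low levels, against 16.0% of all genes. Scn7a (ENSMUSG00000034810, chr2:66673425-66784914, minus strand) had 221, 17 and 241 counts in treated cells and 2, 3 and 0 in iECDCs, or 1.72, 0.110 and 1.82 FPKM against at most 0.0249 FPKM. Replicate 2 was far below the other treated libraries yet above every iECDC library. The depth-corrected ratio was 93.0 with an exact 95% counting interval from 39.6 to 288, an interval that covers counting error only, and the adjusted p was 0.00845 (edgeR).

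Scn3a, a sodium channel of the developing nervous system, had 17, 19 and 25 counts in treated cells against 2, 2 and 7 in iECDCs. Its log2 fold change was 2.31 ± 0.536 with an adjusted p of 0.0156 (edgeR), which became 0.0586 without SB431542 replicate 3, 0.0779 without iECDC replicate 1 and 0.0738 without iECDC replicate 2, in a range from 1.02e-05 to 0.0779. Without iECDC replicate 3, which held 7 of these iECDC counts, the log2 fold change was 3.23 with an adjusted p of 0.0112. Scn2a, another channel of neurons, did not pass, at 0.752, 0.291 and 0.652 FPKM against 0.366, 0.358 and 0.358 FPKM with an adjusted p of 0.163 (edgeR). Without SB431542 replicate 2, the only treated library below the iECDC values, its adjusted p was 0.00121. Scn3a, Scn2a and Scn7a lie with Scn1a and Scn9a in a cluster on chr2 from 65457118 to 66784914. Scn1a and Scn9a were low by the count rule and had no test, and whether the neighbours change together was not tested. Tubb3, which made up nearly all of the summed neuronal markers, was at 72.9, 67.7 and 67.6 FPKM in treated libraries against 20.9 to 36.4 FPKM in iECDCs, and the part of any neuronal cells was not tested.

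**Figure D4:**
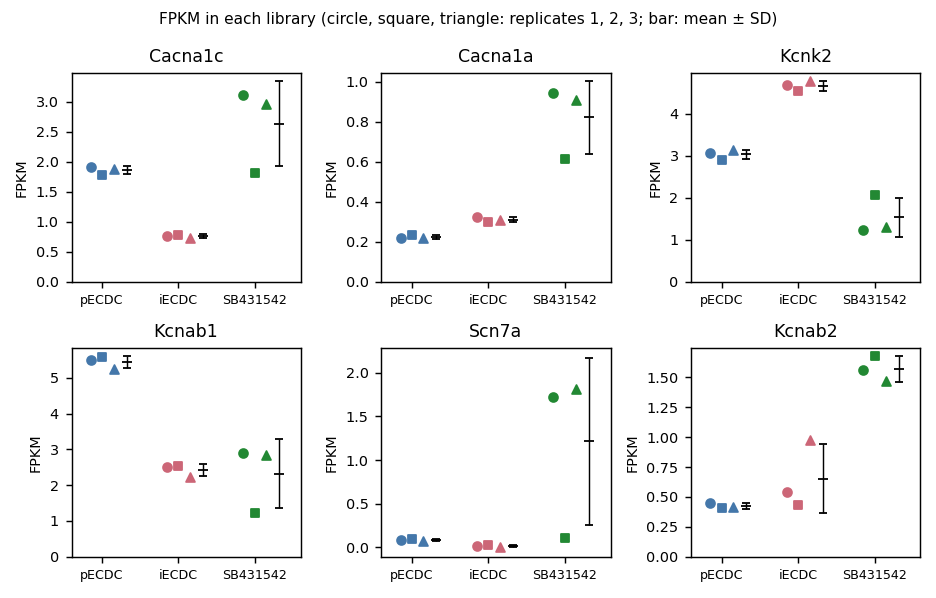
FPKM of 6 channel genes in each library, with circle, square and triangle for replicates 1, 2 and 3 and the mean ± SD beside each group. Cacna1c is lower in iECDCs than in both other groups, Kcnk2 is lowest in treated cells, Kcnab1 is highest in pECDCs, and for Scn7a SB431542 replicate 2, at 0.110 FPKM, is far below the 1.72 and 1.82 FPKM of the other treated libraries.

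Among potassium channel genes 4 were higher and 3 lower in treated cells, where 16.0% of all genes were higher and 14.0% lower. Of those tested, 2 of 4 voltage-gated pores, 1 of 4 inward rectifiers and 1 of 5 auxiliary subunits were higher. Lower were 2 of 4 two-pore channels and 1 of 4 voltage-gated pores. Of 2 calcium- or sodium-activated channels tested 0 were called. The difference from all genes was not tested. Kcnab2, a β subunit related to Kcnab1 (ENSMUSG00000028931, chr4:152390742-152477871, minus strand, overlapped by Nphp4 on the other strand), was at 1.56, 1.68 and 1.47 FPKM against 0.542, 0.436 and 0.980 FPKM. iECDC replicate 3 was the closest to the treated cells, and the log2 fold change was 1.29 ± 0.287 with an adjusted p of 0.0138 (edgeR). Without iECDC replicate 1 or 2 the adjusted p was 0.0669 and 0.0527, and without replicate 3 it was 0.00639. Kcnab1 was not called, with 2.91, 1.22 and 2.84 FPKM in treated cells, a log2 fold change of -0.05 ± 0.296 and an adjusted p of 0.907 (edgeR). Kcnj14, an inward rectifier, was at 1.97, 0.717 and 1.53 FPKM against 0.346, 0.403 and 0.623 FPKM, a log2 fold change of 1.64 ± 0.418 with an adjusted p of 0.0220 (edgeR). Without SB431542 replicate 1 or 3 its adjusted p was 0.0838 and 0.0649, and without iECDC replicate 1 or 2 it was 0.0918 and 0.0825.

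Kcnk2 moved the other way from the first comparison, at 1.22, 2.07 and 1.31 FPKM in treated cells against 4.68, 4.54 and 4.77 FPKM in iECDCs. The groups did not overlap, and replicate 2 was the treated library nearest to the iECDCs. The log2 fold change was -1.59 ± 0.204 with an adjusted p of 0.00188 (edgeR), at most 0.0144 over 15 alternatives. Kcnk10, its close relative in the same family of stretch-sensitive leak channels, had 1, 17 and 1 counts in treated cells against 40, 31 and 21. Replicate 2 alone held most of its treated reads, the log2 fold change was -2.39 ± 0.709 with an adjusted p of 0.0365 (edgeR), and it was -4.79 without replicate 2.

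The remaining calls ended when single libraries were left out. Kcnh2 was higher by 0.72 ± 0.234 on the log2 scale with an adjusted p of 0.0486 (edgeR), and replicate 2, at 3.61 FPKM, lay within the iECDC range of 3.04 to 3.85 FPKM. Kcnd1 was higher by 0.84 ± 0.235 with an adjusted p of 0.0300, and Kcnq5, a pore of the slow M-type current, had a log2 fold change of -1.38 ± 0.412 with 0.0379 (edgeR). Kcnh2, Kcnd1, Kcnq5 and Kcnk10 each lost the call when any library other than SB431542 replicate 2 was left out. Their adjusted p values were then 0.0877 to 0.158, 0.0600 to 0.110, 0.0920 to 0.121 and 0.0691 to 0.117, and 0.000304, 0.00186, 0.000182 and 0.000143 without SB431542 replicate 2. Their log2 fold changes without those other libraries kept their direction, at 0.58 to 0.83, 0.67 to 0.96, -1.45 to -1.06 and -2.55 to -1.92, and the calls over all genes fell from 4061 to between 1707 and 3559. Kcne4, Kcnn1, Kcnt2 and Cacng8 did not pass, and passed once SB431542 replicate 2 was left out, with log2 fold changes of 0.69, 1.07, 1.62 and -0.59.

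The third comparison set the treated cells against pECDCs and shares its libraries with the other comparisons, so it is no independent evidence. Of 37 channel genes tested 11 were higher and 5 lower, 43.2%, against 34.8% of all 14015 genes, with 17.9% higher and 17.0% lower. The median log2 fold change was 0.43, against 0.01 over all genes, and the groups did not overlap in 21 channel genes (56.8%), against 51.5% of all genes. Of the 37, 7 had at least 10 counts in every library of only 1 of the groups compared. Of these 5 were called, with Scn3a, Cacna1g, Kcnf1 and Kcnn4 among them. Such genes could pass the filter through that group alone, which favours a call in its direction. Without SB431542 replicate 2 there were 21 higher and 10 lower, without replicate 1 or 3 there were 7 or 8 higher and 5 lower, and without a pECDC library 6 or 7 higher and 3 to 5 lower.

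Cacna1a (1.88 ± 0.203), Cacnb3 (0.51 ± 0.0625), Kcnab2 (1.89 ± 0.137), Kcnj14 (2.15 ± 0.405) and Scn3a (2.97 ± 0.396) were higher than in pECDCs on the log2 scale, with edgeR adjusted p values from 0.000245 to 0.00756. A minimum log2 fold change of 1 ended the Cacnb3 call. Scn7a had 221, 17 and 241 counts against 15, 14 and 13, and its log2 fold change of 3.83 ± 0.954 had an adjusted p of 0.0206 (edgeR), which lay between 0.0596 and 0.0825 when any library other than SB431542 replicate 2 was left out. Kcnk2 was lower, with a log2 fold change of -0.97 ± 0.198 and an adjusted p of 0.0101 (edgeR), so that its level was highest in iECDCs and lowest in treated cells. Cacna1c, at 1.82 to 3.12 FPKM against 1.79 to 1.91 FPKM, was not called (0.51 ± 0.195, adjusted p of 0.0809, edgeR). Treated replicate 2 lay within the pECDC range, and the adjusted p was 3.64e-09 without it, 0.0412 with all 9 libraries and 0.0431 without a filter.

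Kcnk6, a two-pore channel found in many tissues, was called lower in this comparison, at 0.591, 0.470 and 0.507 FPKM against 1.43, 1.02 and 1.29 FPKM. Its libraries did not overlap, and the log2 fold change was -1.25 ± 0.197 with an adjusted p of 0.00391 (edgeR), at most 0.0251 over 14 alternatives. iECDCs lay between, at 0.800, 1.16 and 0.627 FPKM, and overlapped the pECDC range. Kcnn4 had 1, 0 and 1 counts in treated cells against 15, 10 and 15, a ratio of 16.6 with an exact 95% counting interval from 4.31 to 142 and an adjusted p of 0.00357 (edgeR). Kcnf1, a silent subunit that modifies other voltage-gated potassium channels, had 2, 9 and 2 counts against 23, 15 and 30, and an adjusted p of 0.0183 (edgeR). Kcnab1 had a log2 fold change of -1.22 ± 0.299 and an adjusted p of 0.0194 (edgeR). The Kcnf1 call ended without SB431542 replicate 1 or 3 or pECDC replicate 1 or 3 (0.0602 to 0.0762), and the Kcnab1 call without any pECDC library (0.0608 to 0.0648).

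Kcnk5, a leak channel that responds to pH, was at 0.838, 1.58 and 1.19 FPKM in treated cells against 0.779, 0.590 and 0.654 FPKM, with an adjusted p of 0.0424 (edgeR). Cacna1g, the pore of a T-type calcium channel, had 15, 29 and 13 counts against 14, 3 and 7, with an adjusted p of 0.0465 (edgeR). Cacna2d1 was higher by 0.58 ± 0.139 and Cacng7 by 0.32 ± 0.0857, with adjusted p values of 0.0183 and 0.0264 (edgeR). All 4 lost the call without some library. Without each of pECDC replicates 1, 2 and 3 in turn, Kcnk5 had 0.0871, 0.142 and 0.133, Cacna2d1 had 0.0705, 0.0692 and 0.0717, and Cacng7 had 0.101, 0.0954 and 0.114. Without SB431542 replicate 1, Cacna2d1 had 0.0560, Cacng7 0.0637 and Cacna1g 0.0899. Without SB431542 replicate 3, Kcnk5 had 0.0944 and Cacna1g 0.0642, and without pECDC replicate 2 or 3 Cacna1g had 0.130 and 0.151.

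Other ion transport genes gave a frame for these values. A list of 60 pacemaker, TRP, Piezo, store-operated, intracellular release, pump and exchanger genes, with 21 at the floor, had 31 tested between iECDCs and pECDCs, with 4 higher and 3 lower, against 7.21% and 9.21% of all genes. Between treated cells and iECDCs 4 of 31 were higher and 6 lower, with a median log2 fold change of -0.01, against 16.0% higher and 14.0% lower over all genes. Between treated cells and pECDCs 6 of 32 were higher and 6 lower, against 17.9% and 17.0% over all genes. The difference from the channel genes was not tested. Trpc6, a cation channel opened by diacylglycerol, was higher in iECDCs than in pECDCs (log2 fold change 1.30 ± 0.321, adjusted p of 0.0252, edgeR) and lower in treated cells than in iECDCs (-2.90 ± 0.426, 0.00306), as Kcnk2 was. Piezo2, a stretch-activated channel of sensory cells, was lower in both, with log2 fold changes of -0.57 ± 0.126 and -2.47 ± 0.191 and adjusted p values of 0.0153 and 0.000395 (edgeR). The sums of the list in each library lay between 488 and 556 FPKM.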

How the data were processed

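RNA sequencing of 9 libraries, 3 per group, was used as deposited, and groups follow the labels. The authors deposited raw read counts for each gene, and the deposited FPKM were those counts over gene length and a factor of the library (1 gene in pECDC replicate 3 differed). The submitters' processing notes list Bowtie2 2.0.6, TopHat2 2.0.9 and build mm9, whereas the deposited gene coordinates equal those of GENCODE M21 on GRCm38 for 53499 of 54532 genes and 130 of the 134 channel genes. The counting program is not given in the sources used here. The deposited signal columns (group means of counts over size factors) were not used. Neither were the authors' own comparisons, deposited as log2 fold changes with raw and adjusted p-values. Per the study's methods there were 2 replicates per condition and pECDCs were at passage 3, against 3 libraries and a primary label here.

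The test was edgeR 4.0.16 under R 4.3.3, a quasi-likelihood fit after filterByExpr (at least 10 counts, total 15) and TMM scaling, on the 6 libraries of both groups, with Benjamini-Hochberg adjustment over all genes tested and a threshold of 0.05. The SE is the log2 fold change over the square root of F. The common biological coefficient of variation was 0.0919, 0.171 and 0.144 in the fits of iECDC and pECDC, SB431542 and iECDC, and SB431542 and pECDC libraries. Levels are means ± SD of FPKM. A group at 0 counts was set to 3 counts per library for a bound, and groups with 1 to 3 counts got an exact counting interval. The steps were tested on simulated data with 200 changed genes. Alternatives were DESeq2 1.42.0, RLE size factors, other count filters, limma 3.58.1 on log2(FPKM + 0.1) and log2(FPKM + 1) for genes with at least 0.5 FPKM in 3 libraries, all 9 libraries, a minimum fold, the replicate number as a block and leaving out each library.

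The channel genes, role classes, lists and markers were chosen with earlier results of these data known. Genes were named by rule: up to 8 called genes per direction and comparison by fold change, the 2 highest detected genes of each role, and genes of at least 5 FPKM in a group. Others are named in counts of 5 or fewer, in comparison lists or as noted. Single results of some members are not reported here. Promoters came from RefSeq. Tables used pandas 2.3.3, scipy 1.17.1 and numpy 2.4.6, and figures matplotlib 3.10.9, in python 3.11.15.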

Additional observations from a re-analysis of the deposited data

How the results depend on the processing

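No called fold change of a named channel gene changed sign under the alternatives that were run. For iECDCs against pECDCs, 2 higher and 6 lower channel genes became 0 higher with a log2 fold change of at least 1, 0 higher and 3 lower with all 9 libraries in the fit, 3 lower with at least 10 counts in every library, 2 lower with limma on either FPKM scale and 11 lower without a filter. Leaving out each library gave 1 to 4 higher and 3 to 10 lower. For treated cells against iECDCs, 11 higher and 3 lower became 7 higher with a log2 fold change of at least 1, 7 higher and 1 lower with limma on either scale, 17 higher without a filter, 5 lower with all 9 libraries, and 22 higher and 6 lower without both libraries that stand apart, an alternative chosen after seeing the data. Leaving out each library gave 5 to 19 higher and 1 to 4 lower. For treated cells against pECDCs, 11 higher and 5 lower became 7 higher with a log2 fold change of at least 1, 9 lower with DESeq2, 8 lower with all 9 libraries, 6 higher and 3 lower with limma on either scale, 3 lower with at least 10 counts in every library and 10 lower without a filter. Leaving out each library gave 6 to 21 higher and 3 to 10 lower. The cause of these shifts was not tested, beyond the fewer genes or libraries that some alternatives hold. Detection moved less, with 28 channel genes at a minimum of 20 counts and 26 at a mean of 0.5 FPKM, against 36.

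Samples with the same replicate number did not deviate together (correlations from -0.30 to 0.04 over 12411 genes). This cannot exclude a pairing, because deviations within a group of 3 depend on each other. The libraries that stand apart, iECDC replicate 3 and SB431542 replicate 2, also bear different numbers, with a correlation of 0.24 between them. With the replicate number as a block, 2 channel genes were higher and 5 lower in iECDCs than in pECDCs. In treated cells 10 were higher and 3 lower than in iECDCs, and 9 higher and 5 lower than in pECDCs. The block ended the calls of Kcnip3 (adjusted p 0.0502) in the first, Cacnb3 (0.118) in the second, and Cacna1g (0.0815) and Kcnk5 (0.0909) in the third comparison.

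Depth limits the 28 low genes, whose folds rest on a few reads, and for the 70 genes at the floor no difference was detectable at this depth. Groups of 3 hold too few libraries to judge single outlying values.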

Other observations

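Below the detection limit used in the report, a few channel genes are given by their counts. They were chosen after their values were seen, and Kcnj8, Kcnh1 and Scn10a have no test here. Kcnj8, the inward rectifier pore of ATP-sensitive channels in vascular muscle and pericytes, had 3, 5 and 11 counts in pECDCs, 0, 0 and 0 in iECDCs and 15, 0 and 13 in SB431542 libraries. Treated replicate 2 again stood with the iECDCs. Kcnh1, a slowly activating potassium channel known from dividing cells, had 22, 9 and 13 counts in pECDCs, 4, 6 and 5 in iECDCs and 2, 4 and 1 in treated cells. Scn10a, a sodium channel of sensory neurons, had 1, 0 and 1 counts in pECDCs, 2, 2 and 0 in iECDCs and 4, 5 and 8 in treated cells. Kcna4, a rapidly inactivating potassium channel, was the only gene outside the detected set that was tested between iECDCs and pECDCs, with 10, 10 and 9 counts in pECDCs against 15, 11 and 6 in iECDCs, which overlap, and an adjusted p of 0.378 (edgeR).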
